A study of Mus musculus with 37 samples.

Results

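Cytochrome P450 genes of family 4 were followed through whole transcriptome sequencing (WTS) of mouse ureter and bladder: Cyp4a12a, Cyp4a12b, Cyp4a10, Cyp4a14, Cyp4b1, Cyp4f13 and Cyp4f16. They are 7 of the 24421 gene symbols in the count table, and all 7 were found there. The set was picked by the rise of Cyp4a12b in cancerous ureter, so the values of Cyp4a12a and Cyp4a12b are given as a description without a test. All mice were wild-type BALB/c females. BBN-treated mice drank water with N-butyl-N-(4-hydroxybutyl) nitrosamine, a bladder carcinogen, for 18 weeks, and the other mice drank tap water. UT libraries are ureters of the side with cancer in mice given BBN, and UN libraries are the opposite ureters of the same mice, without cancer. U libraries are ureters of untreated mice. Bladders of the BBN-treated mice (BBN bladder) and of untreated mice (untreated bladder) were also sequenced. The comparisons used 10 UT, 7 UN and 6 U libraries, 9 BBN bladders and 3 untreated bladders. UT 5R and UT 5L are both ureters of 1 mouse, and the 6 U libraries are left and right ureters of the 3 mice that gave the untreated bladders. Left out of the comparisons were UT 9, which the study's own heatmap omits, and the BBN bladder of mouse 6 (BBN bladder T 6). Its library name carries a T and those of the 9 BBN bladders compared an N, the letters that mark cancerous and noncancerous ureters.

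Family 4 enzymes put a hydroxyl group on the last carbons of fatty acids. Cyp4a enzymes act on medium- and long-chain fatty acids including arachidonic acid, and in mouse liver and kidney most Cyp4a genes are targets of the fatty acid receptor PPARα. Cyp4f enzymes hydroxylate leukotrienes and related lipids, and Cyp4b1, best known from lung, also activates xenobiotics such as aromatic amines, the class of chemicals long linked to urothelial cancer.

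The family contains close copies, and this decides how far single members can be read. Cyp4a12a (chromosome 4, 115299046 to 115332815, plus strand, GRCm38) and Cyp4a12b (115411624 to 115439034, plus strand) lie near each other, and their coding sequences were identical at 1501 of 1524 bases (98.5%). Of all windows of 100 bases along the Cyp4a12a transcript, 35.8% were found unchanged in Cyp4a12b, so a read from such a window fits both. The stretch of 90 coding bases with the most differences is in exon 6 and holds 7 of them, shown in capitals, at chr4:115326659-115326748 for Cyp4a12a and chr4:115432912-115433001 for Cyp4a12b.
Cyp4a12a: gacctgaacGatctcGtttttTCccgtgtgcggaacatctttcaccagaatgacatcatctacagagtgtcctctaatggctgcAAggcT
Cyp4a12b: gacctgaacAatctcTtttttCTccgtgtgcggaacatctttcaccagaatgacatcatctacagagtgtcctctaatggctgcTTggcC
At the other extreme, the first 90 coding bases, in exon 1 at chr4:115299128-115299217 and chr4:115411683-115411772, hold no difference and cannot tell the genes apart.
Both genes: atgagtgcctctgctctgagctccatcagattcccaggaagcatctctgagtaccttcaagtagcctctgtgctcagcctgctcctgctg
Cyp4a10 (chromosome 4, 115518264 to 115533649) shared 12.7% of its windows with its copies Cyp4a31 and Cyp4a32, Cyp4f16 (chromosome 17, 32536558 to 32551798) shared 9.8% with Cyp4f37 and Cyp4f17, and Cyp4b1 (chromosome 4, 115624725 to 115647723) shared 4.5% with its pseudogenes. Cyp4a14 (chromosome 4, 115486200 to 115496142) and Cyp4f13 (chromosome 17, 32924688 to 32947402) shared none. Fractional counts made up 36.1% of the nonzero values of Cyp4a12b, 41.2% of those of Cyp4a12a, 55.9% for Cyp4a10, 70.3% for Cyp4f16, 32.4% for Cyp4b1, 5.4% for Cyp4f13 and none for Cyp4a14, an order that the shared windows do not follow throughout.

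Counts per library ranged from 3557697 to 18793560 over the 37 libraries. Levels are given as CPM, the count of a gene scaled by the total of its library, without the TMM factors that the fitted fold changes use. The bladders of mice 1, 3 and 4 are those the study lists with low RNA integrity. The labelled tissue was checked with 10 urothelial genes, whose summed level was 1169 to 2323 CPM in U, 1489 to 4639 CPM in UT, 16773 to 17498 CPM in untreated bladder and 561 to 4660 CPM in BBN bladder. In BBN bladder 6 of these 10 genes were lower and none higher than in untreated bladder, with a median log2 fold change of -2.45. UN 2 stood apart with 17.2 CPM, and its 10 adipocyte genes summed to 68964 CPM, in the range of the U libraries (52005 to 78461 CPM). In whole pieces of tissue like these, fewer cells of a type and less RNA per cell cannot be told apart.

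Cyp4a12a and Cyp4a12b, arachidonic acid hydroxylases whose expression in mouse kidney is much higher in males, were near 0 in U, UN and untreated bladder and high in most UT libraries. Cyp4a12b was at 0 to 0.209 CPM in U (median 0.117, n = 6) and at 0.0457 to 0.807 CPM in UN (median 0.642, n = 7). In UT it ranged from 0.504 CPM in UT 2 to 303 CPM in UT 10, with a median of 31.4 CPM (n = 10). In UT, 8 of the 10 libraries lay between 18.4 and 303 CPM, UT 6 was at 1.63 CPM, and only UT 2 fell inside the UN range. UT 9, which took no part in the comparisons, was at 7.31 CPM. The UT libraries averaged 56.0 ± 88.9 CPM (SD, n = 10), or 28.6 ± 20.5 CPM without UT 10, and the UN libraries 0.534 ± 0.297 CPM (n = 7). The fitted log2 fold change of UT against UN was 6.59 for Cyp4a12b and 6.60 for Cyp4a12a, where 5.58% of the 15615 genes tested were at least 2-fold higher in UT and 11% at least 2-fold lower. These values belong to the contrast by which the genes were picked, so nothing is read from them.

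**Figure D1:**
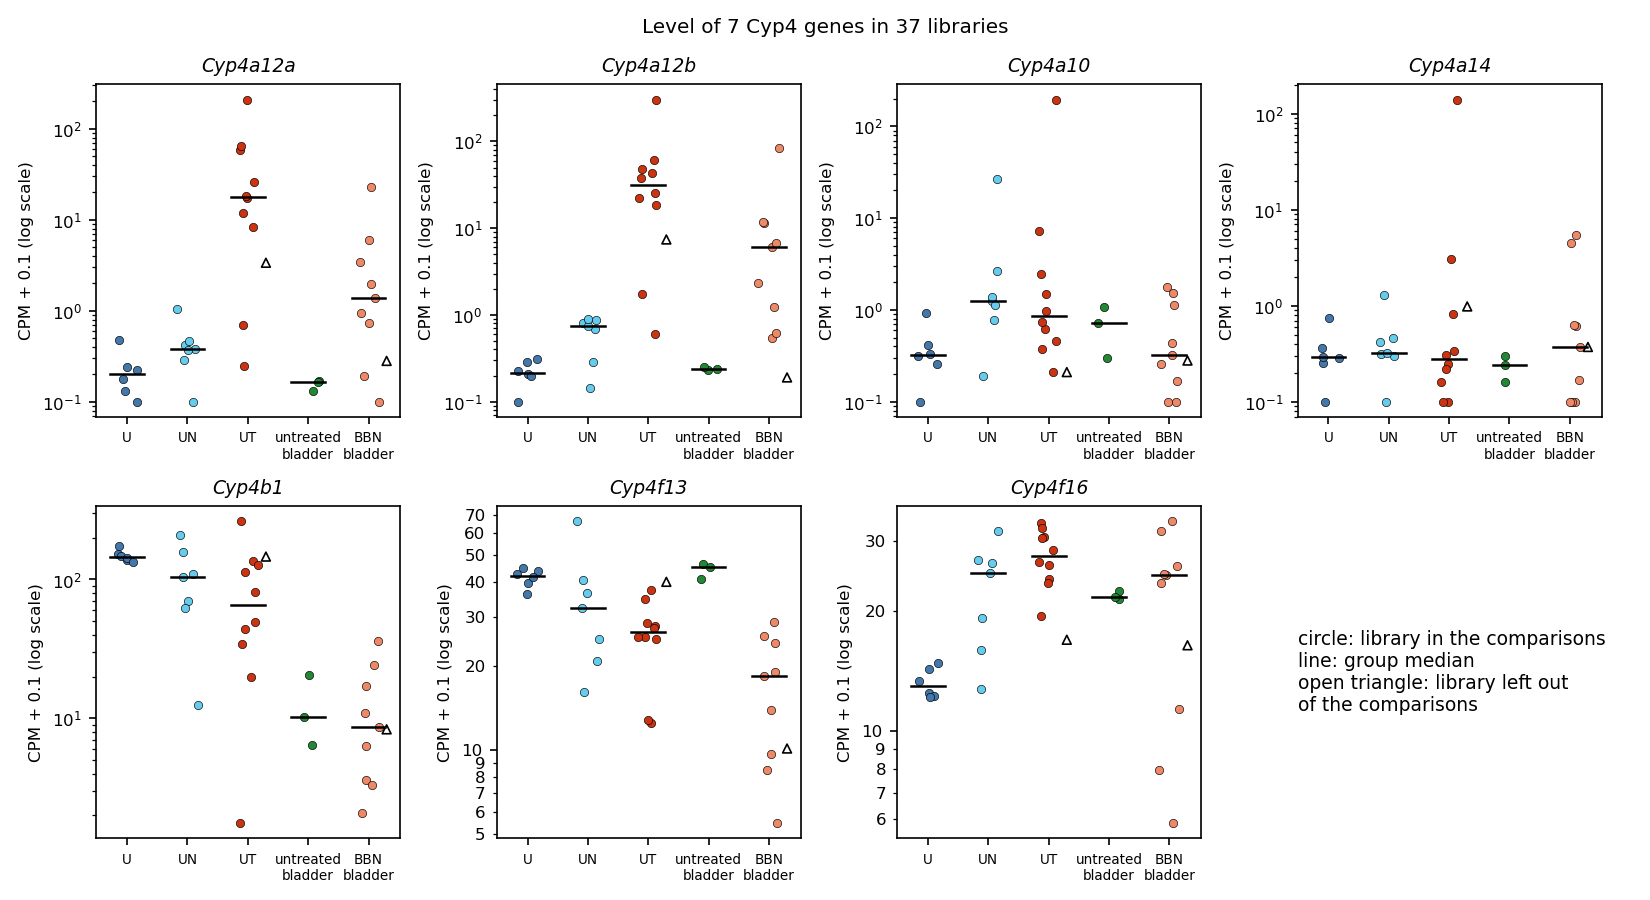
Level of each gene (CPM + 0.1, log scale) in every library by group, with the group median as a line and the 2 libraries left out of the comparisons as open triangles. Cyp4a12a and Cyp4a12b are near the bottom of the axis in U, UN and untreated bladder and spread upward in UT and BBN bladder. Cyp4b1 separates U from untreated bladder, while UT and UN reach into the BBN bladder range. The UT 4 point stands alone in Cyp4a10 and Cyp4a14.

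In 6 mice, with mouse 9 left out because its UT library was not compared, the 2 ureters gave both a UT and a UN library. Cyp4a12b was higher on the UT side in 6 of 6 mice and Cyp4a12a in 5 of 6. The differences for Cyp4a12b were not alike between mice. On the scale of log2(CPM + 1) they ranged from 0.52 in mouse 2 and 0.68 in mouse 6 to 5.28 in mouse 4, with a mean of 3.22 ± 2.09 (SD, n = 6). Mouse 5 had cancer on both sides and gave 48.1 CPM on the right and 25.0 CPM on the left.

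**Figure D2:**
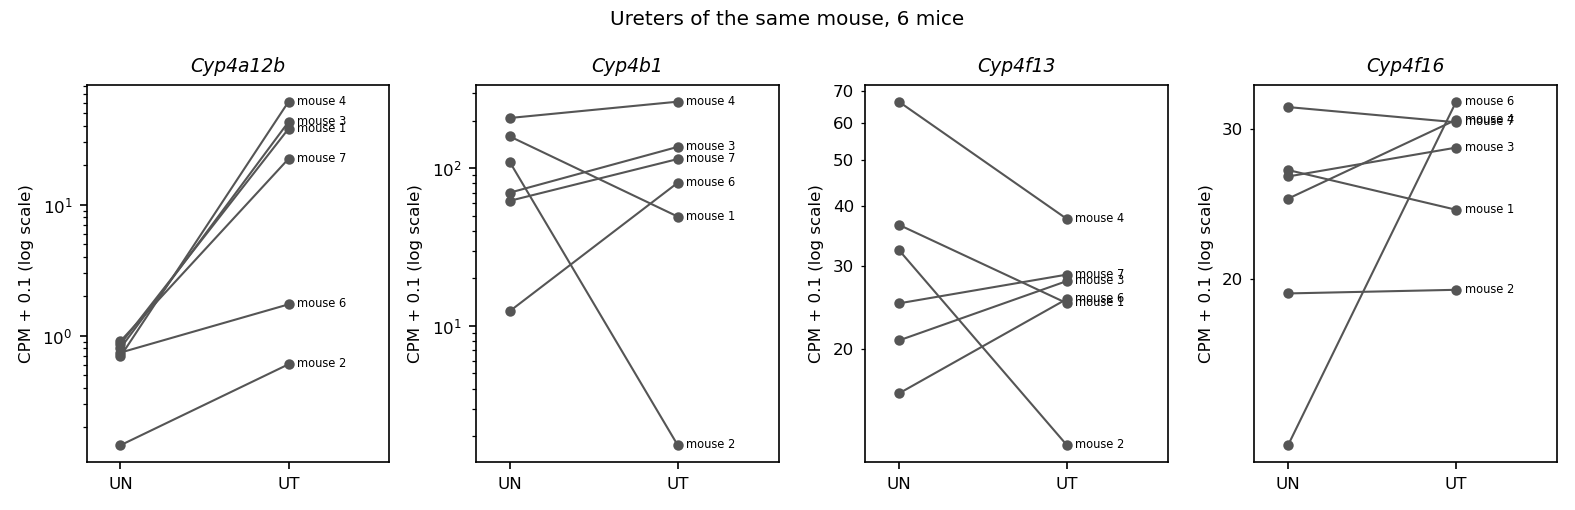
Level (CPM + 0.1, log scale) of 4 genes in the UN and UT ureter of the same mouse, 1 line per mouse (6 mice). All 6 lines rise for Cyp4a12b, steeply in 4 mice, while the lines of Cyp4b1, Cyp4f13 and Cyp4f16 run in both directions.

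The counts of the pair were not split alike in all libraries. In the 15 libraries with at least 20 counts over both genes, Cyp4a12b took the larger share in 14. The Cyp4a12a share was 26.7% to 71.9% in 10 UT libraries with UT 9 included (median 35.0%) and 16.2% to 34.2% in 5 BBN bladders (median 22.2%). The single reversal was UT 5L, where Cyp4a12a took 71.9% of 866 counts (95% exact binomial interval 68.8% to 74.9%). The opposite ureter of that mouse, UT 5R, gave 27.4% of 850 counts (24.4% to 30.5%), so the intervals of the 2 sides of mouse 5 did not overlap. Intervals cover counting error only, and how reads that fit both genes were shared out was not tested.

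**Figure D3:**
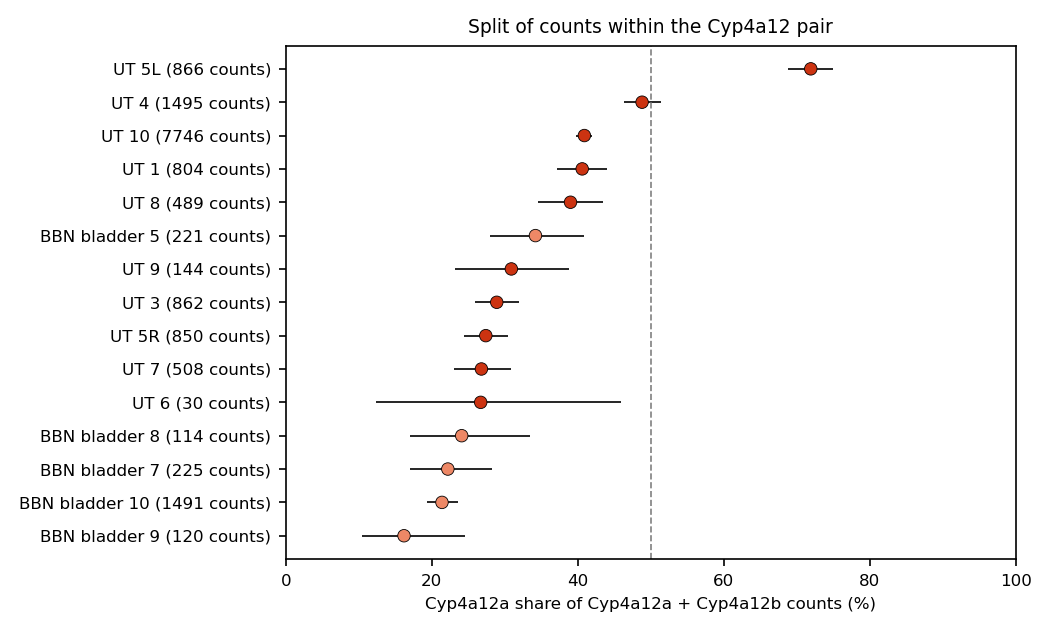
Share of Cyp4a12a in the summed counts of Cyp4a12a and Cyp4a12b (%) in the 15 libraries with at least 20 counts, with 95% exact binomial intervals and the summed count beside each name; red points are UT, orange points BBN bladder and the dashed line marks equal shares. UT 5L at 71.9% is the point to the right of the line, and 4 of the 5 BBN bladders (16.2% to 24.1%) lie below all UT libraries.

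In the bladder the pair was again higher with BBN. The genes were picked for the rise of Cyp4a12b with the levels of all groups in view, and the bladders come from the same mice as the ureters, so the bladder values of the pair are a description without a test too. Cyp4a12b was at 0.133, 0.139 and 0.150 CPM in the 3 untreated bladders. It was at 0.448 to 84.5 CPM in the 9 BBN bladders, with a median of 5.92 CPM. BBN bladders 1, 3 and 4, listed with low RNA integrity, were at 2.21, 1.12 and 0.511 CPM. The groups did not overlap, and BBN bladder 10 was far above the next library (11.6 CPM). The mean was 13.8 ± 26.9 CPM (SD, n = 9) with BBN bladder 10 and 4.99 ± 4.66 CPM (n = 8) without it. Cyp4a12a was at 0.0301 to 0.0697 CPM in untreated bladders and at 0 to 23.0 CPM in BBN bladders (median 1.29), and BBN bladder 4 at 0 CPM lay below the untreated range. BBN bladder T 6, outside the comparison, had 0.0905 CPM of Cyp4a12b, below all 3 untreated bladders.

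Because the untreated bladders held only 7 counts of Cyp4a12b and 3 of Cyp4a12a over 3 libraries, after rounding, the size of the difference is loosely bounded, and the pair passed the filter on low counts through the BBN bladders. The ratio of pooled CPM was 112 (95% counting interval 54.2 to 279) for Cyp4a12b and 76.4 (26.0 to 372) for Cyp4a12a. These intervals cover counting error only and leave out the spread between mice. BBN bladder 10 held 1172 of the 1707 pooled counts of Cyp4a12b, and without it, a choice made after seeing the data, the ratios were 40.7 (19.6 to 102) and 32.1 (10.8 to 157). The fitted log2 fold change was 6.69 ± 1.80 (SE) for Cyp4a12b and 6.31 ± 1.95 for Cyp4a12a, and over 19 alternatives they ranged from 4.13 to 7.18 and from 3.03 to 6.83.

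Mouse 10 held the highest Cyp4a12b level of both organs, 303 CPM in its cancerous ureter and 84.5 CPM in its bladder. Among the libraries compared, mouse 2 held the lowest of both, 0.504 CPM in UT and 0.448 CPM in the bladder. Between them the order was not shared: UT 4 was second among ureters with 60.8 CPM, and BBN bladder 4 had 0.511 CPM. UT 4 also had 3839 CPM of kidney tubule genes, and BBN bladder 4 was listed with low RNA integrity. BBN bladder 7, second among bladders with 11.6 CPM, stood beside UT 7 with 22.2 CPM. The same-mouse libraries are not separate animals, and ureter and bladder are therefore no independent repeats of each other.

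Kidney tubule genes, a check because mouse kidney expresses Cyp4a genes, stood out in UT 4, where all 16 had their highest level and summed to 3839 CPM, against at most 78.0 CPM in the other UT libraries. UT 10, with the most Cyp4a12b, had a kidney sum of 23.4 CPM, and BBN bladder 10 had 11.2 CPM, the lowest of the BBN bladders. The urothelial sums of these 2 libraries were 4639 and 4660 CPM. UT 2 and BBN bladder 2, with the least Cyp4a12b, had 2578 and 2894 CPM, and the untreated bladders about 0.14 CPM of Cyp4a12b at 16773 to 17498 CPM. The part of either cell type in the Cyp4a12b levels was not tested.

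Among the genes whose levels followed Cyp4a12b most closely over the 37 libraries were Ppp1r1b (Spearman's rho = 0.866), Olfm4 (0.866), Pigr (0.854) and Vsig1 (0.849), of 15367 genes with a mean of at least 1 CPM. Olfm4 is a secreted protein of gut crypts, Pigr the receptor that carries IgA across epithelia, and Vsig1 a junction protein of stomach epithelium. The libraries share groups and mice, and these values are a description. Median Ppp1r1b was 14.9 CPM in UT, 1.61 in UN, 0.228 in U, 9.46 in BBN bladder and 0.120 in untreated bladder. Median Pigr was 91.8 CPM in UT, 42.6 in UN, 2.45 in U, 63.8 in BBN bladder and 16.3 in untreated bladder, so unlike Cyp4a12b it was already high in UN.

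Cyp4a10 and Cyp4a14, fatty acid hydroxylases that PPARα agonists induce strongly in liver, were low in nearly all libraries, and 1 cancer decided their group means. Cyp4a10 was at 0 to 0.826 CPM in U, 0.0894 to 26.3 CPM in UN and 0.109 to 195 CPM in UT, with medians of 0.224, 1.15 and 0.759 CPM. UT 4 had 195 CPM and the next UT library, UT 3, had 7.21 CPM. The UT mean was 20.9 ± 61.3 CPM (SD, n = 10) with UT 4 and 1.53 ± 2.24 CPM (n = 9) without it. Cyp4a14 was at 140 CPM in UT 4, 2.99 CPM in UT 3 and at most 0.711 CPM in the other 8 UT libraries, and BBN bladders 1 and 3 had 4.42 and 5.34 CPM, which are 28 and 19 counts. The copies of Cyp4a10 followed, with Cyp4a31 at 75.4 CPM and Cyp4a32 at 14.5 CPM in UT 4. UT 4 is the library with the high kidney tubule sum, and the part of that RNA in these values was not tested.

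Cyp4a10 held 0 to 13.3 counts in each U library and entered the ureter fit mainly through UT and UN. For UT against U the fit gave a log2 fold change of 5.77 ± 1.81 (SE) and an adjusted p of 0.0121 (edgeR's quasi-likelihood test). Without UT 4 the log2 fold change was 2.05 and the adjusted p 0.116, so the call rested on that library. It was also lost with the RNA integrity of the libraries as a covariate (4.42, adjusted p = 0.117), with both ureters of a mouse summed (5.95, adjusted p = 0.102) and with limma (1.96, adjusted p = 0.142). In UN the log2 fold change against U was 3.83 ± 1.73, with an adjusted p of 0.141, and without UN 4 it was 1.95 (adjusted p = 0.446). UN 4, the opposite ureter of the same mouse, had 26.3 CPM of Cyp4a10 and the next UN library 2.56 CPM. Its kidney sum was 21.6 CPM, inside the range of the other UN libraries (20.2 to 71.3 CPM), and its Cyp4a14 was 0.365 CPM. DESeq2 (2.0, adjusted p = 0.0837) and a fit of UN and U alone (3.85, adjusted p = 0.0413) called Cyp4a10 higher in UN. Cyp4a14 passed the filter on low counts in neither the ureter fit nor the bladder fit. In the bladder, Cyp4a10 was at 0 to 1.69 CPM with BBN and 0.2 to 0.988 CPM without, and its log2 fold change of 0.34 ± 1.47 had an adjusted p of 0.901.

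**Figure D4:**
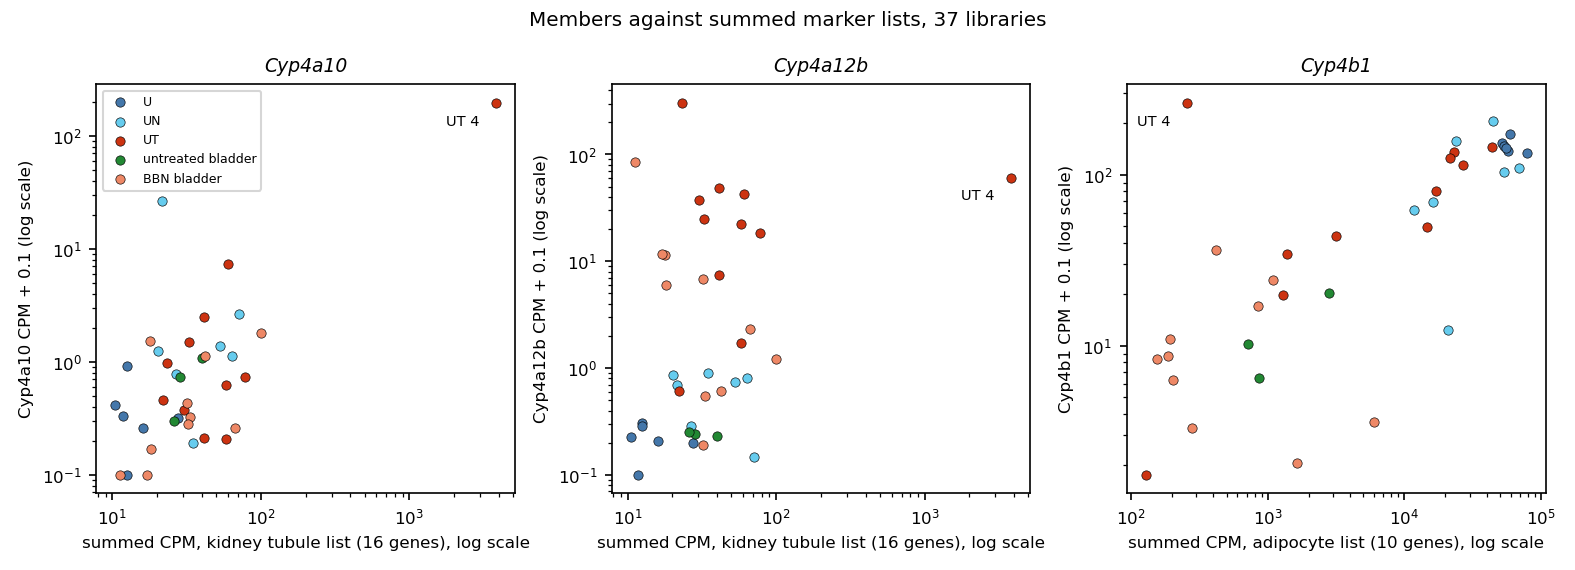
Cyp4a10 and Cyp4a12b against the summed CPM of 16 kidney tubule genes, and Cyp4b1 against the summed CPM of 10 adipocyte genes, all on log scales, 1 point per library (37) coloured by group, with UT 9 drawn among UT and BBN bladder T 6 among BBN bladder. UT 4 (kidney sum 3839 CPM) lies alone at the right for Cyp4a10, whereas UT 10 has 303 CPM of Cyp4a12b at a kidney sum of 23.4 CPM. UT 4 also has the highest Cyp4b1 (263 CPM) at an adipocyte sum of 256 CPM.

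Cyp4b1 was the most abundant member per length in ureter. Divided by the length of its exons, its mean level was 65.7 ± 6.21 CPM per kb (SD, n = 6) in U, followed by Cyp4f13 at 9.36 ± 0.708 and Cyp4f16 at 4.28 ± 0.365 CPM per kb. The Cyp4a members were at or under 0.138 CPM per kb in U. In UT, Cyp4b1 (38.5 ± 34.2 CPM per kb, n = 10), Cyp4a12b (23.4 ± 37.1) and Cyp4a12a (17.1 ± 26.0) were within their spread of each other.

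Cyp4b1 set ureter apart from bladder without any carcinogen. It was at 134 to 173 CPM in U (median 145) and at 6.38, 10.1 and 20.3 CPM in the 3 untreated bladders of the same mice. The groups were far apart, with the lowest U library above the highest bladder. The log2 fold change of U against untreated bladder was 3.97 ± 0.31 (SE), with an adjusted p of 4.85e-07 (edgeR's quasi-likelihood test), and it was 4.07 with the mouse as a block. Adipocyte genes moved with it: all 10 were higher in U, and their sum was 52005 to 78461 CPM in U and 715 to 2816 CPM in untreated bladder. Their part in the Cyp4b1 difference was not tested. Across this comparison 15.7% of 15318 genes were higher in U and 14.3% lower. Cyp4b1 was the 1 called member of the 3 that passed the filter. Cyp4f13 (0.30 ± 0.11, adjusted p = 0.0383) and Cyp4f16 (-0.35 ± 0.11, adjusted p = 0.0145) passed the adjusted p of 0.1 but differed by less than 2-fold. Cyp4f16 was lower in all 6 U libraries (12.1 to 14.7 CPM) than in the 3 bladders (21.4 to 22.3 CPM).

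In carcinogen-treated ureters Cyp4b1 spread widely. It ranged from 12.3 to 207 CPM in UN (median 104) and from 1.66 to 263 CPM in UT (median 64.9). Among UT, 8 of the 10 libraries were below the lowest U library, UT 3 was inside the U range and UT 4 above it. The log2 fold change was -0.67 ± 0.61 for UN against U (adjusted p = 0.483) and -1.12 ± 0.56 for UT against U (adjusted p = 0.104). The second missed the threshold narrowly. It was -1.49 with an adjusted p of 0.0241 without UT 4, -1.87 with 0.0323 by limma and -1.12 with 0.0808 by DESeq2. Without UT 3 or without UT 8 it was also called. Under 20 of 25 alternatives it stayed uncalled, with an adjusted p of up to 0.335. UT 2, the UT library with the least Cyp4b1 (1.66 CPM), also had the lowest adipocyte sum (128 CPM), and UT 7 with the highest (26930 CPM) had 114 CPM of Cyp4b1. UT 4 combined the most Cyp4b1 (263 CPM) with an adipocyte sum of only 256 CPM and a kidney tubule sum of 3839 CPM. The part of kidney RNA in its Cyp4b1 level was not tested. All 10 adipocyte genes were lower in UT than in U, with a median log2 fold change of -3.01, and their part was not tested.

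Within mice Cyp4b1 had no common direction. It was higher on the UT side in 4 of 6 mice and lower in 2, from 1.66 against 109 CPM in mouse 2 to 80.6 against 12.3 CPM in mouse 6. UN 6 had the fewest counts of the UN libraries (4675081), with 35.5% of them in its 10 most abundant genes. In the bladder Cyp4b1 was at 1.97 to 36.2 CPM with BBN (median 8.57, n = 9), around the 6.38 to 20.3 CPM of untreated bladders. The log2 fold change there was 0.16 ± 0.65 with an adjusted p of 0.891. The genes most like Cyp4b1 over the 37 libraries were the angiotensin receptor gene Agtr1a (rho = 0.959), the pseudogene Cyp4b1-ps2 (0.927), Gcdh (0.903), Btd (0.899) and Hacl1 (0.893). Cyp4b1-ps2 shares sequence with Cyp4b1, and Gcdh, Btd and Hacl1 encode enzymes of lysine, biotin and branched fatty acid metabolism.

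Cyp4f13, an enzyme of the leukotriene and fatty acid hydroxylating Cyp4f group, was lower in BBN bladder than in untreated bladder and lower in UT than in U. In the bladder the groups did not overlap, with 5.37 to 28.7 CPM in 9 BBN bladders (median 18.4) and 41.0, 45.2 and 46.5 CPM in the 3 untreated bladders. The log2 fold change was -1.20 ± 0.26 (SE) with an adjusted p of 0.00948, and the gene was called under all 19 alternatives (adjusted p from 6.2e-05 to 0.0726). The lowest values, 5.37, 8.37 and 9.56 CPM, were those of the bladders of mice 4, 1 and 3, and without these 3 libraries the log2 fold change was -1.05 with an adjusted p of 0.00304. In the ureter, Cyp4f13 was at 36.4 to 45.1 CPM in U (median 42.2), 16 to 66.3 CPM in UN (median 32.3) and 12.5 to 37.5 CPM in UT (median 26.4). Among UT, 9 of the 10 libraries were below the lowest U library. The log2 fold change was -1.04 ± 0.23 for UT against U (adjusted p = 0.00104) and -0.39 ± 0.25 for UN against U (adjusted p = 0.304). The UT value stood at the 2-fold threshold: it was -0.96 without UT 2, -0.96 without UT 10 and -0.90 with all 11 UT libraries, with adjusted p values still under 0.1. Other markers moved beside Cyp4f13. The median log2 fold change of 8 smooth muscle genes was -1.14 in BBN bladder, with none called, and 6 of the 8 were lower in UT than in U (median -1.67), as were all 10 adipocyte genes. Their part, and that of the urothelial genes lower in BBN bladder, was not tested. The ratio of mean CPM, without TMM factors, was nearer to 1 (0.618) than the fitted fold (0.488).

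Cyp4f16, a gene of the same group on chromosome 17, moved the other way in ureter. It was at 12.1 to 14.7 CPM in U (median 12.8), 12.7 to 31.7 CPM in UN (median 24.8) and 19.3 to 33.1 CPM in UT (median 27.4). No UT library overlapped U, and 6 of 7 UN libraries were above the highest U library, the exception being UN 6. That library had the fewest counts of the UN libraries (4675081). The log2 fold change was 0.73 ± 0.13 for UT against U (adjusted p = 0.000165) and 0.66 ± 0.14 for UN against U (adjusted p = 0.00433), past the adjusted p but under 2-fold. With both ureters of a mouse summed, the UN value was 0.66 with an adjusted p of 0.125. On mean CPM the UT ratio was 2.09, so the side of the 2-fold threshold depended on the scaling. Within mice the UT and UN sides mostly lay close together, with a mean difference of 0.25 ± 0.53 (SD, n = 6) on the scale of log2(CPM + 1). In the bladder Cyp4f16 was at 5.76 to 33.5 CPM with BBN and 21.4 to 22.3 CPM without, and the log2 fold change was 0.11 ± 0.30 with an adjusted p of 0.837. The bladders of mice 1, 3 and 4 were again the 3 lowest, at 5.76, 11.2 and 7.86 CPM.

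**Figure D5:**
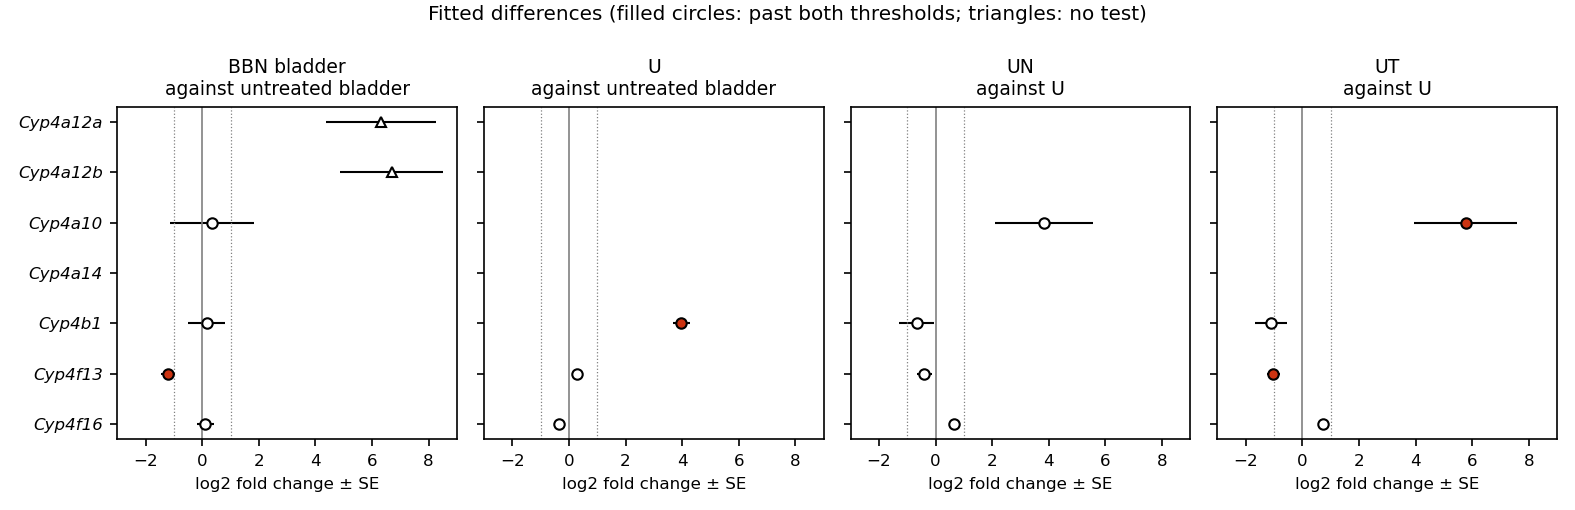
Log2 fold change with its SE for the members in 4 comparisons; filled circles passed both thresholds (adjusted p under 0.1 and at least 2-fold, dotted lines), triangles are the Cyp4a12 pair, shown without a test, and members without a point are not given. Cyp4f13 is filled for BBN bladder, Cyp4b1 for U against untreated bladder, Cyp4a10 and Cyp4f13 for UT against U, and no member for UN against U. The Cyp4a10 point is not past the thresholds without UT 4.

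Members outside the Cyp4a12 pair were counted against all genes, as a description, since some passed the filter mainly through 1 group. In BBN bladder none of 4 was called higher and 1 lower, where 7.08% of all 17984 genes were higher and 5.47% lower. For UT against U, none of the 3 members other than Cyp4a10 was higher and 1 was lower, beside 18.6% and 14.4% of 15615 genes, and Cyp4a10 is left out of this count because its call rested on UT 4. For UN against U none of these 4 was called, beside 11.9% higher and 1.65% lower, while Cyp4a10 and Cyp4f16 had unadjusted p values of 0.0365 and 8.37e-05. Whether the BBN difference differed between noncancerous ureter and bladder was tested as an interaction, in which 1.65% of 18757 genes were higher in the ureter and 0.682% lower. None of the 5 members tested was called, by edgeR or DESeq2, and Cyp4a10 (3.59 ± 1.71, adjusted p = 0.396, or 1.70 without UN 4) and Cyp4f13 (0.82 ± 0.38, adjusted p = 0.376) had unadjusted p values of 0.0458 and 0.0387.

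Among 13 other family 4 genes 9 passed the filter in the bladder fit. Cyp4a29 had no count or about 1 count in the untreated libraries and is given without a test and left out of the counts, with a median of 0.986 CPM in BBN bladder and no count in the 3 untreated bladders. Of the other 8, 1 was higher and 1 lower, where 7.08% and 5.47% of all genes were. Cyp4x1, among these 8 and not called, also had no count in the 3 untreated bladders. Cyp4f15 lost nearly all of its bladder expression, from a median of 403 CPM to 1.43 CPM, with a log2 fold change of -7.81 ± 0.78 and an adjusted p of 6.85e-05. Urothelial genes fell beside it, Upk1a with a log2 fold change of -6.27 (adjusted p = 0.000212) and Upk2 with -5.21 (adjusted p = 5.87e-05), and their part was not tested. Cyp4f18, the leukotriene hydroxylase of mouse neutrophils, was higher (2.17 ± 0.75, adjusted p = 0.0943), and the sum of 7 neutrophil genes was 12.1 to 195 CPM in BBN bladder and 6.82 to 8.79 CPM in untreated bladder; its part was not tested. The median log2 fold change of the 9, with Cyp4a29 included, was 0.22, beside 0.23 over all genes. In UT, Cyp4a29 had a median of 0.711 CPM, and it was at most 0.0620 CPM in U. For UT against U, 2 of the other 6 were higher and 2 lower, beside 18.6% and 14.4% of all genes. Cyp4f18 was higher by 2.87 ± 0.67 (adjusted p = 0.00148), and Cyp4f39 by 1.5 ± 0.64 (adjusted p = 0.0585). Cyp4f15 (-4.34 ± 0.89, adjusted p = 0.000517) and Cyp4f17 (-1.47 ± 0.34, adjusted p = 0.00127) were lower. For UN against U, 1 of the 6 was higher, Cyp4f18 (2.03 ± 0.67, adjusted p = 0.0464), and 1 lower, Cyp4f15 (-2.82 ± 0.97, adjusted p = 0.0554), beside 11.9% and 1.65% of all genes. Of 6 neutrophil genes tested, 5 were higher in UT and 6 in UN than in U, beside 18.6% and 11.9% of all genes. These counts are a description, since Mmp8, at most 0.191 CPM in U, passed the filter on low counts through UT and UN. The part of neutrophils was not tested. Cyp4f15 was the 1 of 11 called in the interaction (4.95 ± 1.07, adjusted p = 0.0163), its fall being smaller in ureter, where it started from a median of 43.2 CPM.

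Genes that serve the enzymes were examined with them. The 4 electron donors had no gene higher in any BBN comparison, where 18.6% of all genes were higher in UT, 11.9% in UN and 7.08% in BBN bladder. Of the 4, 2 were lower in UT, 1 in UN and 1 in BBN bladder, beside 14.4%, 1.65% and 5.47% of all genes. Por, the reductase that feeds all microsomal P450 enzymes, was lower in UT than in U (-1.40 ± 0.29, adjusted p = 0.000486) and in UN than in U (-1.05 ± 0.31, adjusted p = 0.0295). Cyb5b was lower in UT than in U (-1.10 ± 0.23, adjusted p = 0.000665) and in BBN bladder (-1.42 ± 0.45, adjusted p = 0.0674). Median Por was 590 CPM in the adipocyte-rich U and 278 CPM in untreated bladder, and all 10 adipocyte genes were lower in UT than in U (median -3.01). Their part was not tested here or for the next groups.

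Of 17 genes of arachidonic acid metabolism, 16 were tested. The UT and U groups differed in 7 of them, 5 higher and 2 lower in UT, beside 18.6% and 14.4% of all genes, with a median log2 fold change of 0.48 beside 0.08 over all genes. Ptgs2, the inducible cyclooxygenase, had the largest change with 6.08 ± 1.04 (adjusted p = 0.000114), from at most 0.693 CPM in U, so that it too passed the filter on low counts through UT and UN, and it was higher in UN (4.36 ± 0.99, adjusted p = 0.00745) and in BBN bladder (5.27 ± 0.96, adjusted p = 0.00354). Ephx2, the soluble epoxide hydrolase, was lower in UT (-3.16 ± 0.58, adjusted p = 0.000211), from a median of 1009 CPM in U, beside 34.8 CPM in untreated bladder, and Alox15, a lipoxygenase, higher (2.85 ± 0.97, adjusted p = 0.0192). Ptgs2 was the 1 gene of the 16 called in UN against U, beside 11.9% of all genes higher and 1.65% lower. Hpgd, which breaks down prostaglandins, was lower in UT (-2.37 ± 0.54, adjusted p = 0.00127) and in BBN bladder (-3.12 ± 0.32, adjusted p = 8.84e-05). In BBN bladder 2 genes were higher and 3 lower, beside 7.08% and 5.47% of all genes, Alox12 among the lower (-1.73 ± 0.47, adjusted p = 0.0333), with a median of -0.15 beside 0.23.

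Genes that take omega-hydroxylated fatty acids further numbered 10. Compared with U, 3 of them were higher and 4 lower in UT (median -0.48 beside 0.08), where 18.6% and 14.4% of all genes were, and 2 higher and 1 lower in UN, where 11.9% and 1.65% were. Slc27a2 (4.09 ± 1.80, adjusted p = 0.0655), Adh7 (3.20 ± 0.87, adjusted p = 0.00457) and Acsl1 (-3.47 ± 0.65, adjusted p = 0.000239) had the largest fitted changes. The Slc27a2 value came from UT 4, with 1016 CPM against at most 10.3 CPM in the other 36 libraries, and its median was lower in UT (0.918 CPM) than in U (4.60 CPM). Median Acsl1 was 3588 CPM in U and 69.1 CPM in untreated bladder, and its fall stood beside that of the adipocyte genes. In BBN bladder none was higher and 2 were lower, with Adh1 (-3.02 ± 0.38, adjusted p = 0.000282) among them and a median of -0.85 beside 0.23, where 7.08% of all genes were higher and 5.47% lower.

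Of PPARα and its other targets, 18 of 21 tested were lower in UT than in U and 0 higher, beside 14.4% and 18.6% of all genes, with a median log2 fold change of -2.24 beside 0.08 over all genes. Pdk4 (-2.48 ± 0.60, adjusted p = 0.00187) and Cpt2 (-2.47 ± 0.39, adjusted p = 5.89e-05) were among the 18. In BBN bladder 1 of 22 was higher, Vnn1 (2.42 ± 0.57, adjusted p = 0.016), and 11 were lower, led by Acaa1b (-4.12 ± 0.38, adjusted p = 4.85e-05) and Acot1 (-3.41 ± 0.44, adjusted p = 0.000347), with a median of -1.11 beside 0.23 and with 7.08% of all genes higher and 5.47% lower. In UN 0 of 21 were higher and 4 lower, beside 11.9% and 1.65%. Adipocytes express many of these genes, and the 10 adipocyte genes, all lower in UT than in U, had no call in BBN bladder (median -0.02). In BBN bladder 6 of 10 urothelial genes were lower (median -2.45). The part of either was not tested.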

How the data were processed

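The authors mapped paired reads to GRCm38/mm10, and the submitters' processing notes name TopHat2 2.1.1 and Cuffdiff 2.2.1. The deposited table holds estimated counts per gene symbol for 37 libraries, without normalization. The program that counted reads is not given in the sources used here, and 21.1% of nonzero values were fractional. Columns were matched by name, with 0 left over. Counts were rounded for edgeR 4.0.16 in R 4.3.3 (quasi-likelihood, TMM, filterByExpr, Benjamini-Hochberg over all genes tested), with calls at an adjusted p under 0.1 and at least 2-fold. UT, UN and U were fitted together, the bladders apart, U with untreated bladder, and UN, U and both bladder groups for the interaction. DESeq2 1.42.0 and limma 3.58.1 (prior count 2) were alternatives. The fits were checked on simulated counts.

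Total counts were 9724542 to 16735797 in UT, 4675081 to 14973904 in UN, 12980008 to 18793560 in U, 3557697 to 15104379 in BBN bladder and 14348701 to 16617435 in untreated bladder, so 1 count was under 0.3 CPM. Gene models and transcripts were those of GENCODE vM21. The 7 genes, the gene lists and the tests were chosen with earlier results of these data known. A test of the Cyp4a12 pair in bladder had been planned, and it is not reported because the selection named the bladder groups too. From each list the counts in each direction are given, with up to 3 called genes of largest fold change; the genes most like a member were taken from the 5 with the highest Spearman correlation. Some genes these rules pick are not reported here. Where fewer or other list genes are named, they were chosen after their values were seen. Equal numbers mark ureters of 1 animal in the labels, so the pairing was given, and the median correlation of their deviations was -0.00425 over 6 pairs and -0.00701 over 64 other pairs. Promoters and proteins of the Cyp4a members were not used here. P-values treat libraries as independent, although 2 ureters of a mouse are not, nor are a ureter and the bladder of 1 mouse, as in the interaction.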

Additional observations from a re-analysis of the deposited data

Results flagged for a closer look

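Library levels within groups of 4 to 10 were examined on the scale of log2(CPM + 1) for 1 library apart from the rest, in 28 combinations of member and group, of which chance would mark about 1 in 20. Of these, 4 were marked. Cyp4a10 in UT 4 was 195 CPM, with 7.21 CPM in the nearest library, and Cyp4a14 in UT 4 was 140 CPM, with 2.99 CPM in the nearest. Cyp4a10 in UN 4 was 26.3 CPM, with 2.56 CPM in the nearest. Cyp4a14 in UN 2 was 1.19 CPM, with 0.365 CPM in the nearest, which is a difference of few counts. UT 9, outside the comparisons, held 3.27 CPM of Cyp4a12a and 7.31 CPM of Cyp4a12b, above the highest U libraries (0.372 and 0.209 CPM).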

How the results depend on the processing

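Of the 6 questions asked of the members, U against untreated bladder (1 member called), BBN bladder against untreated bladder (1, Cyp4f13) and the interaction (0) gave the same count under all alternatives run. For UN against U the count of 0 became 1 with DESeq2 and 1 with only these 2 groups fitted, both through Cyp4a10. For UT against U the count of 2 became 1 with RNA integrity as a covariate, 1 with all 11 UT libraries and 1 with left and right ureters summed per mouse, and ranged from 1 to 3 when 1 library was left out. It was 1 without UT 2 or UT 10, which took Cyp4f13 under 2-fold. It was 3 with DESeq2, which added Cyp4b1, and 3 with no filter on low counts, which added Cyp4a14. Limma kept the count at 2 but exchanged Cyp4a10 for Cyp4b1. In BBN bladder against untreated bladder directions reversed only for 2 members that were never called there. Cyp4a10 was -0.27 by limma and ranged from -0.19 to 0.87 with 1 library left out, with -0.08 without BBN bladder 4 and -0.11 without untreated bladder 3. Cyp4b1 was -0.083 by limma and ranged from -0.16 to 0.70 with 1 library left out, with -0.11 without BBN bladder 2. The fitted change of Cyp4a12b, given without a test, was 4.13 by limma. The causes were not tested. With the mouse as a replicate block, Cyp4b1 in U against untreated bladder was 4.07, still 1 member called, and Cyp4a12b in UT against UN was 5.16 instead of 6.59. No other comparison was run with a block.

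Counts over all genes moved more. UT against UN, from which no test is reported, gave 1683 genes, against 0 with the mouse as a replicate block, 0 with RNA integrity as a covariate and 1 with only these 2 groups fitted. Its other settings that moved it over 1.5 times gave 535 to 2641. UN against U gave 2108 genes and 160 with ureters summed per mouse. Whether the list genes called in UN against U stayed called with ureters summed is not given. BBN bladder gave 2258, against 5586 with DESeq2, 997 to 1038 without 1 untreated bladder and 3485 without the bladders of mice 1, 3 and 4. The interaction gave 437, against 997 with DESeq2, 156 to 211 without 1 untreated bladder, 1122 without those bladders and 96 summed per mouse. With 3 untreated bladders and few counts there, the size of the Cyp4a12 difference in bladder is loosely bounded.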
